A study of Mus musculus with 9 samples.

Results

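The genes described here are 10 genes that mark adipocytes, the fat-storing cells of the skin's lower layer and of other fat depots: *Adipoq*, *Lep*, *Plin1*, *Plin4*, *Fabp4*, *Cidec*, *Retn*, *Cfd*, *Pparg* and *Lpl*. They were chosen by name, and all 10 were found among the 17943 genes of the count table and passed the filter of at least 10 counts summed over the 9 mice, which left 16426 genes to test. Bulk RNA-Seq libraries of mouse skin were compared between 5 control mice and 4 *Supt6*-KO mice, taken on day 10 after the last injection. *Supt6* encodes SPT6, a histone chaperone and elongation factor of RNA polymerase II. In the study's methods the controls are *Supt6* fl/fl mice given corn oil, and the *Supt6*-KO mice are K14-CreERT; *Supt6* fl/fl mice given tamoxifen, so that the groups differ both in the Cre transgene and in the injected agent, while the floxed alleles are shared. The K14 promoter drives the recombinase in keratinocytes of the basal layer, and the libraries hold all cell types of the tissue. The sample labels call the controls WT and the tissue ear, whereas the methods name dorsal skin. Cartilage markers, which ear tissue holds, were present in the controls (584 ± 203 CPM summed over the list, SD, n = 5) and lower in the *Supt6*-KO mice (100 ± 13.1 CPM, SD, n = 4). Whether both groups held the same parts of the tissue was not tested. The study placed the injections in the first telogen, the resting phase of the hair cycle, and the age of these mice in days is not given in the sources used here.

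Adipocytes store triglyceride in a single large lipid droplet coated by perilipins, take up fatty acids that lipoprotein lipase frees from circulating lipoproteins, and release hormones such as leptin and adiponectin. The nuclear receptor PPARγ, with C/EBP factors, switches on this programme and many of its genes. In skin, the dermal adipocyte layer is known to grow and shrink with the hair cycle, to insulate, and to take part in defence against bacteria and in wound repair.

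Depth was even, at 29627341 to 30491197 counts per control library and 30597189 to 30967107 per *Supt6*-KO library. Levels are given as CPM, counts scaled to a common library size, after TMM factors that correct each library for its composition. Genes with an adjusted p under 0.05 (edgeR's quasi-likelihood test) were called lower or higher. *Supt6* itself stood at 74.5, 56.6, 63.6, 91.1 and 96.7 CPM in the controls and at 28.6, 24.1, 21.9 and 28.4 CPM in the *Supt6*-KO mice. Its log2 fold change was -1.57 (standard error, SE, 0.18, edgeR adjusted p = 1.3e-05), and every *Supt6*-KO library lay below every control library. *Supt6* stood at -2.26 when scaled by library totals alone and at -0.77 with a correction for transcript length, called lower in both. The labels name each sample as a mouse of its own, and the p-values measure the spread between these mice.

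Most of the adipocyte genes fell in *Supt6*-KO skin, and none was called higher. The 7 of 10 that fell were *Lep*, *Plin1*, *Plin4*, *Pparg*, *Cidec*, *Lpl* and *Adipoq*, where 36.8% of all tested genes were called lower and 34.1% higher. Each of the 7 fell by at least 2-fold, a mark that 24.9% of all tested genes passed in the downward direction, and in each the 4 *Supt6*-KO mice lay below all 5 controls, as did 31.8% of all tested genes. *Fabp4*, *Retn* and *Cfd* did not pass the test. The median log2 fold change of the 10 genes was -1.61, against -0.072 over all genes tested. Levels are relative to the rest of each library. In a whole-tissue library, fewer adipocytes, less RNA per adipocyte and more RNA from other cells cannot be told apart.

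The calls of *Retn* and *Cfd* and the direction of *Fabp4* depended on the scaling. TMM factors were 1.198 to 1.315 in the controls and 0.674 to 0.91 in the *Supt6*-KO mice. With library totals alone, the median of all genes moved from -0.072 to -0.759, *Retn* (-1.08) and *Cfd* (-0.83) were called lower as well, and *Fabp4* turned from 0.46 to -0.23. That made 9 of the 10 genes lower, where 54.6% of all tested genes were lower and 16.9% higher with this scaling. The 7 called genes were called lower under every scaling tried.

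**Figure D1:**
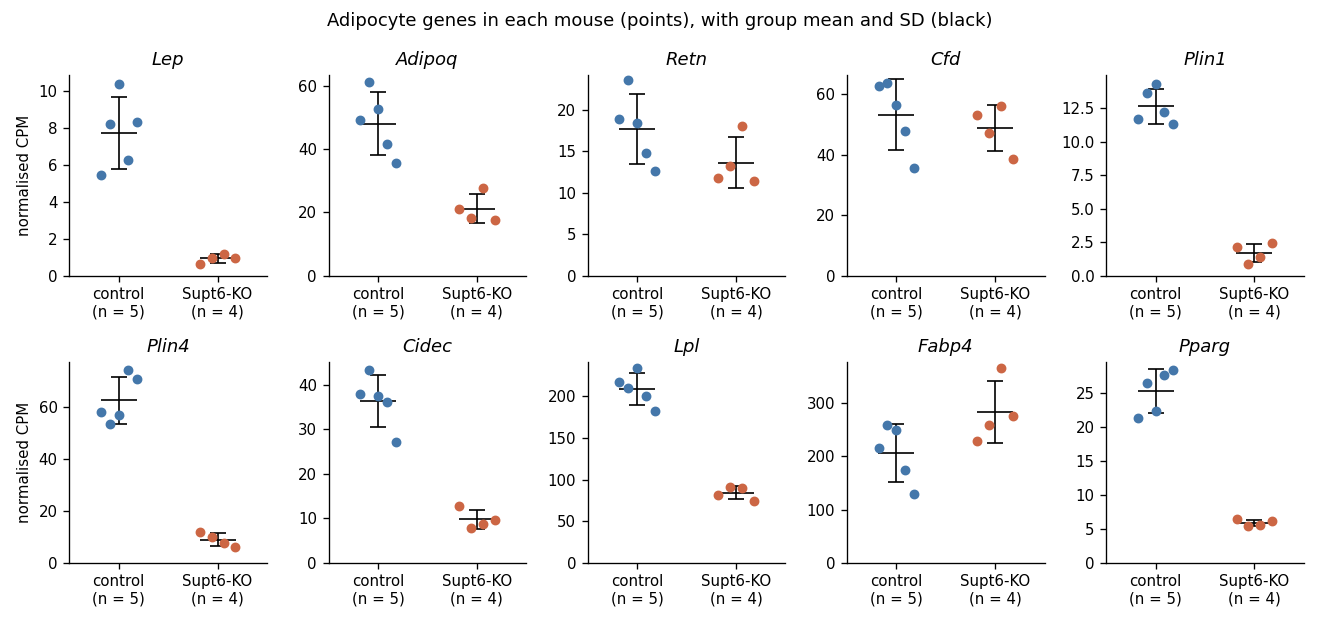
Normalised CPM of each adipocyte gene (vertical axes, linear, from 0) in the 5 control mice (blue) and the 4 *Supt6*-KO mice (orange), with the group mean and SD in black. The groups stand apart for *Lep*, *Adipoq*, *Plin1*, *Plin4*, *Cidec*, *Lpl* and *Pparg* and overlap for *Retn*, *Cfd* and *Fabp4*.

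The secreted products were unequal. *Lep* (gene 16846, forward strand of chromosome 6, 29060221 to 29073876 in GRCm38) encodes leptin, the hormone that reports fat stores to the brain. It stood at 5.48, 8.21, 10.4, 6.27 and 8.33 CPM in the controls and at 0.627, 0.96, 1.19 and 0.97 CPM in the *Supt6*-KO mice, on 15 to 27 counts per *Supt6*-KO library. The *Supt6*-KO mean was 12.1% of the control mean, a log2 fold change of -3.04 (SE 0.26, edgeR adjusted p = 2.3e-06), the lowest of the 10 genes. This rank needed all mice. Without *Supt6*-KO mouse 1, *Plin4* (-3.02) and *Plin1* (-3.0) lay below *Lep* (-2.89). Without *Supt6*-KO mouse 4, *Plin1* (-3.11) lay below *Lep* (-3.07). *Adipoq* (gene 11450, forward strand of chromosome 16, 23146536 to 23157968) encodes adiponectin, which raises insulin sensitivity and is made almost solely by adipocytes. Its levels were 49.2, 61.3, 52.7, 41.6 and 35.7 CPM in the controls and 21.1, 18.3, 27.7 and 17.5 CPM in the *Supt6*-KO mice. The fall to 44.0% of the control mean was smaller than that of *Lep* (log2 fold change -1.18, SE 0.19, edgeR adjusted p = 0.00015), and the groups did not overlap.

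*Retn* (gene 57264, forward strand of chromosome 8, 3655770 to 3659818) encodes resistin, a hormone that in mice comes mainly from fat. Controls held 18.9, 23.6, 18.4, 14.8 and 12.6 CPM and *Supt6*-KO mice 11.8, 13.3, 18.1 and 11.4 CPM. The means were 17.7 ± 4.24 and 13.6 ± 3.06 CPM (SD), and the log2 fold change of -0.37 did not pass the test (SE 0.20, edgeR adjusted p = 0.12). With TMM factors, *Supt6*-KO mice 2 and 3 lay within the range of the controls, and mice 1 and 4 just under it. By library totals the groups did not overlap, at 16.5 to 28.3 CPM in the controls and 8.95 to 12.8 CPM in the *Supt6*-KO mice. *Cfd* (gene 11537, forward strand of chromosome 10, 79890853 to 79892655) encodes adipsin, the complement factor D that fat supplies to the blood. It stood at 62.7, 63.7, 56.4, 48.0 and 35.7 CPM in the controls and at 53.1, 47.2, 56.0 and 38.7 CPM in the *Supt6*-KO mice. All 4 *Supt6*-KO values with TMM factors fell within the control range, with a log2 fold change of -0.13 (SE 0.18, edgeR adjusted p = 0.53). By library totals *Cfd* did not overlap either, at 46.9 to 78.0 CPM in the controls and 31.8 to 41.4 CPM in the *Supt6*-KO mice.

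Promoters are shown for *Lep*, which had the lowest log2 fold change with TMM factors and all mice, for *Adipoq*, and for *Cfd*, which was not called. Each is the 250 bases before the annotated start, from RefSeq (GRCm38.p6), on the forward strand. Letter patterns were searched on both strands: the direct repeat that PPARγ binds with RXR, which is the hexamer AGGTCA given 2 times with 1 free base between, that hexamer alone, the C/EBP pattern TTGCNNAA and the TATA box TATAAA. A match to the repeat is also a match to the hexamer. Capitals mark a match.
Lep, chr6:29059971-29060220: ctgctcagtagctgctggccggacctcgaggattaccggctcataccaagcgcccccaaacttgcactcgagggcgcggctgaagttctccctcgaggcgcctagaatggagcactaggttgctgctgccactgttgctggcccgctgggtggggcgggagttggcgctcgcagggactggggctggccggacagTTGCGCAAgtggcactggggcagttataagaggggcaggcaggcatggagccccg
Adipoq, chr16:23146286-23146535: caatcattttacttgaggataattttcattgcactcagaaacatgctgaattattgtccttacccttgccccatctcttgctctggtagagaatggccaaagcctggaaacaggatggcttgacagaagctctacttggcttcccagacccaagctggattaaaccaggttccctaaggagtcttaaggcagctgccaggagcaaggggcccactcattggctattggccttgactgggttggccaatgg
Cfd, chr10:79890603-79890852: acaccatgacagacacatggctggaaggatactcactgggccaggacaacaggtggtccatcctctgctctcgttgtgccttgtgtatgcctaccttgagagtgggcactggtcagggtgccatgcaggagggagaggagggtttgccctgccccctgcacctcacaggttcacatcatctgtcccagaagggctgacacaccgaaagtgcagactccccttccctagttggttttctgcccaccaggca
The *Lep* window held TTGCGCAA, which reads the same on both strands and begins 55 bases before the start, whereas the *Adipoq* and *Cfd* windows held none of the patterns. A promoter window was at hand for 8 of the 10 genes, all but *Lpl* and *Fabp4*. The C/EBP pattern was found in a window of 4 of the 8 (*Lep*, *Plin1*, *Cidec* and *Pparg*) and in 10.8% of 27025 genes with a window of this length. Genes differ in their number of windows, and 9.56% of 32851 windows held the pattern. *Cidec* held it only in its window 2 and *Pparg* only in its window 3. The hexamer was found in 1 of the 8, *Pparg*, and in 15.8% of genes, the TATA box in 1 of the 8, again *Pparg*, and in 14.3%, and the full repeat in none of the 8 and in 0.0407%. The 4 genes with the C/EBP pattern were all among those that fell, as were *Adipoq* and *Plin4*, which lacked it. A match is only a run of letters, and no binding was measured here.

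The lipid droplet genes among the 10, *Plin1*, *Plin4* and *Cidec*, all fell. *Plin1* (gene 103968, reverse strand of chromosome 7, 79721164 to 79732904) encodes perilipin 1, the coat protein that guards the adipocyte droplet from lipases. It stood at 11.7, 13.6, 14.3, 12.2 and 11.3 CPM in the controls and at 2.13, 0.864, 1.37 and 2.41 CPM in the *Supt6*-KO mice. The level fell to 13.4% of the control mean (log2 fold change -2.88, SE 0.27, edgeR adjusted p = 3.6e-06). The controls were close to each other, with an SD of 10.1% of the mean, while the *Supt6*-KO mice spread by 41.6% on 18 to 67 counts. *Plin4* (gene 57435, reverse strand of chromosome 17, 56100587 to 56109948) encodes perilipin 4, which coats small, young droplets. Its levels were 58.3, 53.7, 56.9, 74.3 and 70.8 CPM in the controls and 11.7, 9.74, 7.55 and 5.93 CPM in the *Supt6*-KO mice, a log2 fold change of -2.85 (SE 0.21, edgeR adjusted p = 8.7e-07). *Cidec* (gene 14311, reverse strand of chromosome 6, 113424634 to 113435760) encodes the protein that fuses droplets into a single large one. Controls held 37.9, 43.5, 37.5, 36.2 and 27.2 CPM and *Supt6*-KO mice 12.8, 7.87, 8.74 and 9.56 CPM, with a log2 fold change of -1.90 (SE 0.18, edgeR adjusted p = 4e-06). No *Supt6*-KO mouse reached the lowest control for any of these genes.

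The genes of fatty acid entry differed, and the direction of *Fabp4* depended on the processing. *Lpl* (gene 16956, forward strand of chromosome 8, 68880555 to 68906932) encodes lipoprotein lipase, which fat and muscle both make. It stood at 218, 210, 234, 200 and 183 CPM in the controls and at 81.2, 90.8, 89.3 and 74.0 CPM in the *Supt6*-KO mice. Both groups were tight, with SDs of 9.15% and 9.27% of the mean, and the level fell to 40.1% of the control mean (log2 fold change -1.32, SE 0.12, edgeR adjusted p = 3.3e-06). *Fabp4* (gene 11770, reverse strand of chromosome 3, 10204342 to 10208616) encodes the fatty acid carrier of the adipocyte cytoplasm, which macrophages and capillary endothelium also make. Its levels were 216, 260, 250, 174 and 129 CPM in the controls and 230, 260, 367 and 277 CPM in the *Supt6*-KO mice. *Supt6*-KO mice 3 and 4 lay above every control and the other two within the control range, and the log2 fold change of 0.46 did not pass the test (SE 0.21, edgeR adjusted p = 0.072). It passed as higher with RLE factors (adjusted p = 0.048 in edgeR), in DESeq2 (adjusted p = 0.033), and without control 2 (adjusted p = 0.043 in edgeR). It stood at -0.23 with library totals, not called, and was called lower at -0.72 with the length correction (adjusted p = 0.0029 in edgeR).

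*Pparg* (gene 19016, forward strand of chromosome 6, 115360879 to 115490404) encodes PPARγ. It stood at 21.3, 26.5, 22.4, 27.8 and 28.5 CPM in the controls and at 6.43, 5.42, 5.58 and 6.07 CPM in the *Supt6*-KO mice. The *Supt6*-KO mice were within 7.89% (SD) of their mean, and the level fell to 23.2% of the controls (log2 fold change -2.10, SE 0.14, edgeR adjusted p = 5.5e-07), the lowest adjusted p of the 10 genes. In a two-sided exact permutation test of the CPM values, each of the 7 genes that fell gave p = 0.0159, the smallest that 5 mice against 4 allow. The exact permutation test gave p = 0.0952 for *Fabp4*, p = 0.127 for *Retn* and p = 0.5238 for *Cfd*.

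The same mice were often low or high across the genes. Control 5 was the lowest control for 7 of the 10 genes and control 2 the highest for 5. *Supt6*-KO mouse 3 was the highest of its group for 5 genes and mouse 4 the lowest for 5. Relative to the control mean, the median of the 10 log2 levels lay between -0.31 (control 5) and 0.18 (control 2) among the controls and between -1.80 and -1.44 among the *Supt6*-KO mice. No control came near a *Supt6*-KO mouse on this measure.

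Per length, *Fabp4* was the most abundant of the genes in the controls, by the deposited TPM, an abundance corrected for transcript length that was given for the 5 controls and *Supt6*-KO mouse 4. Its control level was 893 ± 147 TPM (SD, n = 5), followed by *Cfd* at 139 ± 20.6, *Retn* at 106 ± 15.7, *Lpl* at 88.3 ± 6.08 and *Adipoq* at 82.5 ± 8.02 TPM. *Cidec* (41.0 ± 3.01 TPM), *Pparg* (27.5 ± 6.21), *Plin4* (16.9 ± 4.28), *Plin1* (12.8 ± 0.818) and *Lep* (4.16 ± 1.02) came after these. Neighbours overlapped in their control ranges from *Cfd* through *Adipoq* and from *Pparg* through *Plin1*, while *Fabp4* at the top, *Lep* at the bottom and *Cidec* did not overlap with their neighbours.

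The 10 genes together took 0.0713% to 0.0918% of all counts in the controls and 0.0306% to 0.0411% in the *Supt6*-KO mice. *Fabp4* alone made up 23.8% to 34.0% of these counts in the controls and 53.4% to 63.0% in the *Supt6*-KO mice. Summed CPM went from 679 ± 92.1 (SD, n = 5) to 478 ± 70.5 (SD, n = 4), and without *Fabp4* from 473 ± 37.8 to 194 ± 20.5, which is 41.1% of the control sum. For all 10 genes the deposited value was a whole number in all 9 mice, to within 0.005, whereas 9.0% of all values in the table were not.

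**Figure D2:**
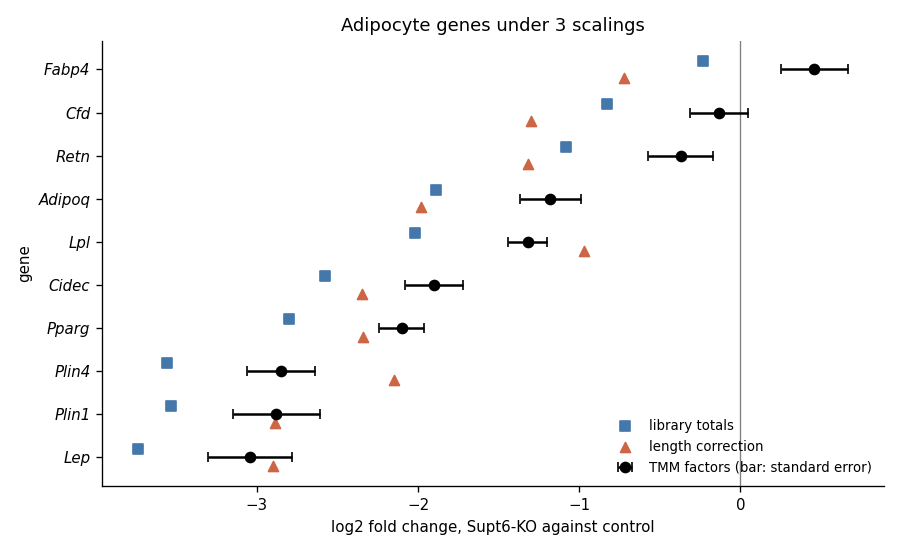
Log2 fold change of each adipocyte gene (horizontal axis, *Supt6*-KO against control) with TMM factors (black, bar: standard error), with library totals alone (blue squares) and with a correction for transcript length (orange triangles). *Fabp4* lies at 0.46, -0.23 and -0.72, and the genes from *Adipoq* down to *Lep* lie below -0.9 in all 3.

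To set scaling aside, each gene was divided by *Adipoq* in the same mouse, a comparison chosen after the values were seen. Of the 9 ratios, 8 separated the groups without overlap (exact permutation p = 0.0159 each, the smallest possible). The share of all tested genes whose ratio to *Adipoq* separates was not measured, so this count is not a result about the adipocyte genes. Because *Adipoq* itself fell, a gene that did not change would rise relative to it. *Lep* per *Adipoq* count was 0.111 to 0.233 in the controls and 0.0296 to 0.0553 in the *Supt6*-KO mice, a mean log2 difference of -1.86. The differences were -1.82 for *Plin1*, -1.70 for *Plin4*, -0.92 for *Pparg* and -0.73 for *Cidec*. Uncorrected for length, these genes fell by more than *Adipoq*. The *Lpl* ratio did not separate the groups, at 3.43 to 5.12 counts per *Adipoq* count in the controls and 3.22 to 4.95 in the *Supt6*-KO mice (log2 difference -0.14, exact permutation p = 0.3968). *Retn* (0.82), *Cfd* (1.07) and *Fabp4* (1.67) rose relative to *Adipoq*. *Fabp4* went from 3.61 to 4.74 counts per *Adipoq* count in the controls to 10.9 to 15.8 in the *Supt6*-KO mice. These ratios within a mouse do not depend on how the libraries were scaled, but they are not corrected for transcript length, whose part in them was not tested. With a correction of the fit for transcript length, the log2 fold change was -1.98 for *Adipoq*, -2.15 for *Plin4*, -2.34 for *Pparg* and -2.35 for *Cidec*, so that these genes lay close to *Adipoq*. *Lep* (-2.90) and *Plin1* (-2.89) stayed lower than *Adipoq* under it, *Retn* (-1.32), *Cfd* (-1.30) and *Fabp4* (-0.72) stayed higher, and *Lpl* (-0.97) was then higher as well. The differences between genes under the correction were not tested.

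**Figure D3:**
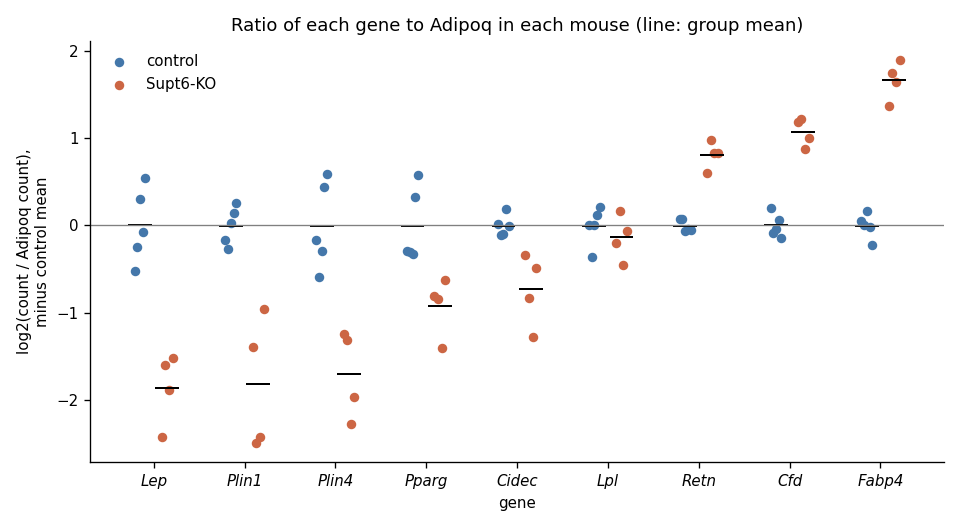
Log2 ratio of the count of each gene to that of *Adipoq* in the same mouse, with the control mean set to 0 (vertical axis), for 5 control mice (blue) and 4 *Supt6*-KO mice (orange), black lines marking group means. The *Supt6*-KO means run from -1.86 for *Lep* to 1.67 for *Fabp4*, and only the *Lpl* groups overlap.

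The order of the genes also followed transcript length. The longest annotated transcripts of *Fabp4* (896 bases), *Cfd* (922), *Retn* (1139) and *Adipoq* (1292) are the shortest of the 10, and these genes had the 4 highest log2 fold changes. Across the 10 genes the correlation of log2 fold change with the log of transcript length was -0.82 by Pearson and by Spearman. Genes are not independent replicates, and all share the same 9 libraries. Over 16365 genes with a length the correlations were -0.30 and -0.38. The median log2 fold change fell over 5 equal classes of length, from 0.89 among the shortest genes (204 to 1676 bases) through 0.26, -0.09 and -0.37 to -0.86 among the longest. Each of the 10 adipocyte genes lay below the median of its own class, by -0.43 for *Fabp4* and -0.95 for *Lpl* at the least and by -2.79 for *Plin1* and -2.95 for *Lep* at the most. With a correction for this trend, chosen after the values were seen, all 10 genes were called lower, beside 33.7% of all tested genes, with *Fabp4* at -0.72 (adjusted p = 0.0029 in edgeR), *Retn* at -1.32 (adjusted p = 1.9e-05) and *Cfd* at -1.30 (adjusted p = 9.9e-06). The part of transcript length in these differences was not tested.

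**Figure D4:**
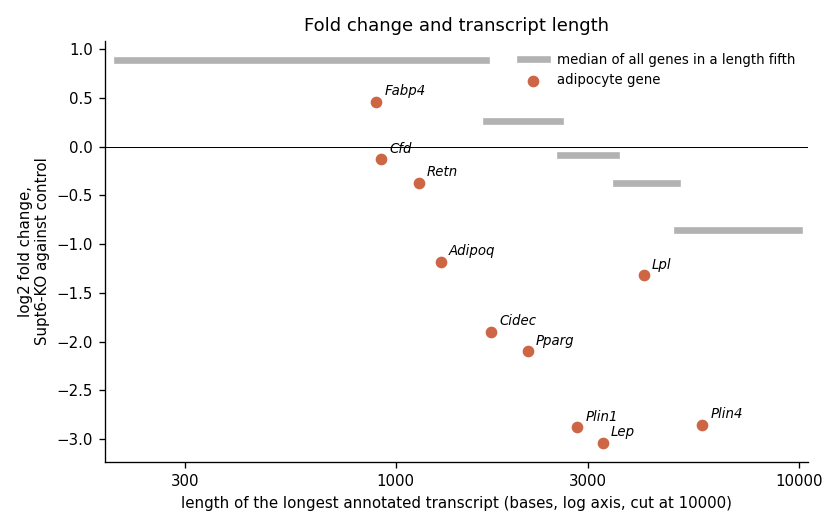
Log2 fold change of the 10 adipocyte genes (orange points, vertical axis) against the length of the longest annotated transcript (horizontal log axis, on which the bar of the longest class is cut short), with grey bars for the median of all tested genes in each of 5 classes of length. All 10 points lie under the bar of their class, and *Lep*, *Plin1* and *Plin4* lie lowest.

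The wider adipocyte programme was followed in lists of genes, whose counts stand beside 36.8% lower and 34.1% higher over all genes tested. All 10 genes of insulin response and glucose entry fell, with a median log2 fold change of -1.58. *Irs1*, the docking protein of the insulin receptor, went from 43.1 ± 8.71 to 5.95 ± 0.695 CPM (log2 fold change -2.86, adjusted p = 3.4e-07 in edgeR), and *Irs2* fell by 2.34 on the log2 scale. With the length correction *Irs1* stood at -1.88 and *Irs2* at -1.56, both called lower. *Cav1* (-1.25) and *Cavin1* (-1.60), which build the caveolae that are dense on adipocytes, fell, and *Akt2*, the kinase that relays the insulin signal, had a small fall of 0.39 that was at 0.04 with the length correction. Of 14 transcription factors of the programme, 11 fell and none was called higher (median -1.67). *Zfp423*, a factor of preadipocyte commitment, went from 3.85 ± 1.83 to 0.342 ± 0.142 CPM (log2 fold change -3.46, adjusted p = 2.6e-05 in edgeR). *Mlxipl*, the glucose-responsive factor ChREBP, fell by 2.17 on the log2 scale. *Rxra*, the partner of PPARγ (-1.78), and *Srebf1*, which drives lipid synthesis (-1.70), fell, as did *Cebpa*, the C/EBP factor of mature adipocytes (-0.49, adjusted p = 0.03 in edgeR), with overlapping groups.

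Fatty acid and triglyceride synthesis fell in 13 of 16 genes, with 1 higher (median -1.35). *Scd1*, the desaturase that makes oleate, went from 5840 ± 559 to 863 ± 192 CPM (log2 fold change -2.76, adjusted p = 1.2e-06 in edgeR). *Lpin1*, the phosphatase that makes diacylglycerol (-3.61), and *Gpd1*, which makes the glycerol backbone (-3.05), fell further. *Agpat2*, which acylates that backbone, was the gene called higher (0.44), and it turned to -0.23 with library totals and -0.17 with the length correction. *Elovl6* (-1.57, and -0.84 with the length correction), an elongase, and *Dgat2* (-0.83), the last step of triglyceride synthesis, fell too. Sebaceous glands and keratinocytes express many of these genes as well.

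Of 11 genes of triglyceride breakdown and its control, 9 fell and 1 rose (median -1.62). *Pnpla2*, the first lipase of the pathway, went from 97.9 ± 7.54 to 23.9 ± 6.37 CPM (log2 fold change -2.03, adjusted p = 1.8e-06 in edgeR), and *Mgll*, the last lipase, fell by 2.73. *Npr3*, the clearance receptor for natriuretic peptides, fell by 2.33. *Abhd5*, the co-activator of the *Pnpla2* lipase that perilipin 1 holds at the droplet, rose from 175 ± 33.7 to 572 ± 118 CPM (log2 fold change 1.71, adjusted p = 1.2e-05 in edgeR).

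The other droplet genes fell in 7 of 12 cases and rose in 2, with a median of -0.52. That median was -1.2 with library totals and -1.22 with the length correction, where the median of all genes was -0.759 and -0.017. *Plin5*, the perilipin of oxidative tissues (-2.78), *Hsd17b13* (-2.37), *Plin2*, the perilipin found in most cells (-0.86), and *Bscl2*, the seipin gene of droplet assembly (-0.42), fell. *Hilpda*, a droplet protein induced by low oxygen, was called higher at 1.16 and stood at 0.04 with the length correction, and *Rab18* (0.49) stood at -0.21 with library totals, not called, and at 1.26 with the length correction, called higher. Among 11 genes of fatty acid uptake and transport, 8 fell and 2 were called higher (median -0.83). *Cd36*, the fatty acid transporter, went from 146 ± 13.4 to 57.5 ± 19.7 CPM (log2 fold change -1.35, adjusted p = 0.00012 in edgeR), *Vldlr* fell by 1.65 and *Slc27a4* by 0.94. With the length correction *Vldlr* stood at -0.76 and *Slc27a4* at -0.6, both called lower. *Acsl1* stood at -0.20 (adjusted p = 0.12 in edgeR) and was called lower with library totals (-0.89, adjusted p = 0.00011). *Fabp5*, the epidermal relative of *Fabp4*, rose from 544 ± 91.6 to 15600 ± 4960 CPM (log2 fold change 4.85, adjusted p = 2.2e-07 in edgeR). *Gpihbp1*, which holds lipoprotein lipase on capillary walls, was called higher at 0.77, and was at 0.02 with library totals.

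Of 13 tested genes among 14 other secreted factors and their receptors, 8 fell and 2 were called higher (median -1.21). *Retnla*, a relative of *Retn*, went from 9.67 ± 3.29 to 0.413 ± 0.461 CPM (log2 fold change -4.52, adjusted p = 2.7e-05 in edgeR), and *Cdh13*, a receptor for adiponectin, fell by 2.70. *Rarres2*, the chemerin gene, was called higher at 0.89 and stood at -0.39 with the length correction. *Adipor1* (0.48), another adiponectin receptor, stood at -0.23 with library totals, not called, and at 0.68 with the length correction, called higher. *Adipor2* stood at 0.25 (adjusted p = 0.15 in edgeR), was called lower with library totals (-0.46, adjusted p = 0.014) and was called higher with the length correction (0.61, adjusted p = 0.0039). Of 10 markers of adipocyte progenitors, 5 fell and 3 rose (median -0.42), shares near the 36.8% and 34.1% of all genes tested. *Pdgfrb* (-2.07) and *Dlk1* (-1.82) fell, and *Cd34* was called lower at -0.35 (adjusted p = 0.047 in edgeR) with overlapping groups. The lower genes of this list numbered 4 with RLE factors, in DESeq2 and with the replicate block, and 7 with library totals (54.6% of all genes). *Dpp4* rose from 5.74 ± 1.37 to 31.2 ± 13.8 CPM (log2 fold change 2.44, adjusted p = 2.3e-05 in edgeR), *Cd24a* rose by 1.89 and *Ly6a* by 1.42, all of which other skin and blood cells express. With the length correction *Ly6a* stood at 0.31 and was not called (adjusted p = 0.19 in edgeR). Of 9 genes of brown and beige adipocytes, 4 fell and 1 rose (median -1.39), a lower share near the 36.8% of all genes tested. The lower genes numbered 7 with library totals, where 54.6% of all genes were lower, and 6 with the length correction, where 33.7% were. None of the 9 had a control mean over 11.3 CPM. *Ppargc1a*, the coactivator of mitochondrial genes (-2.52), *Kcnk3* (-2.39) and *Prdm16* (-1.57) fell, while *Dio2*, the enzyme that activates thyroid hormone, rose by 1.91. The *Kcnk3* values were very low, at 0.399 ± 0.134 CPM in the controls and 0.0682 ± 0.0608 CPM in the *Supt6*-KO mice. With the length correction *Prdm16* stood at -0.59 and was called lower. *Cox8b* (-0.32, adjusted p = 0.30 in edgeR) and *Cox7a1* (-0.15, adjusted p = 0.69), subunits of cytochrome oxidase, were not called with TMM factors. Both were called lower with library totals (-1.05 and -0.90) and with the length correction (adjusted p = 1.3e-07 and 5.7e-06 in edgeR, *Cox8b* at -2.40).

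**Figure D5:**
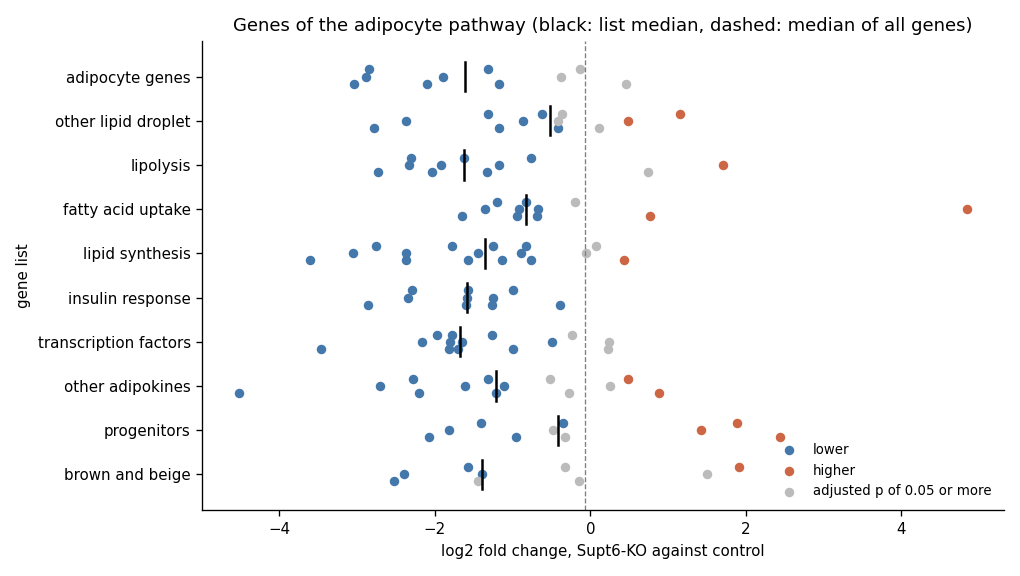
Log2 fold change (horizontal axis, *Supt6*-KO against control) of each tested gene of the adipocyte genes and 9 related lists (rows), blue if called lower, orange if called higher and grey if the adjusted p was 0.05 or more, with list medians in black and the median of all genes dashed. Every list median lies left of the median of all genes, and *Fabp5* is the point at 4.85.

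Markers of other cells in the tissue moved as well, and their part in the adipocyte values was not tested. Their counts with TMM factors stand beside 36.8% lower and 34.1% higher over all genes tested. Skeletal muscle markers, whose tissue also makes *Lpl*, summed to 5610 ± 599 CPM in the controls and 1240 ± 244 CPM in the *Supt6*-KO mice, with 9 of 10 lower, none higher, and *Acta1* the most abundant (-2.66). *Atp2a1*, the calcium pump of muscle, fell by 3.68, and *Mylpf* stood at -0.36 (adjusted p = 0.21 in edgeR) and was called lower with library totals (-1.11). Sebaceous gland markers, whose gland makes lipid with *Pparg* and *Scd1*, went from 1500 ± 91.7 to 814 ± 213 CPM, with 7 of 10 lower and 1 higher, and *Mgst1* (0.69) the most abundant. *Mgst1* was the gene called higher, and it stood at -0.04 with library totals and -0.25 with the length correction, called in neither. *Far2* went from 360 ± 40.9 to 90.1 ± 43.8 CPM and *Krt79* fell by 1.40. Macrophage markers, whose cells can make *Fabp4*, rose from 237 ± 69.4 to 900 ± 195 CPM, with 8 of 10 higher, 1 lower and *Lyz2* (2.79) at 63.3% of the sum. With library totals 4 of them were higher (16.9% of all genes) and with the length correction 5 (33.8%), at medians of 0.39 and 0.56 against 1.07. *Mrc1* rose by 1.89, and *C1qb* rose by 1.48 but was not called with the length correction (0.45). Endothelial markers, whose cells also make *Fabp4*, went from 81.1 to 172 CPM in the controls to 65.7 to 89.4 CPM, or 62.2% of the control mean, with 8 of 10 lower, 1 higher and *Pecam1* (-1.08) the most abundant, and with the length correction 5 were lower (33.7% of all genes) and none higher. *Cldn5* (-0.60) fell with overlapping groups, and *Egfl7* (0.95) was the gene called higher and was not called with library totals (0.24). No marker of these lists was at 0 in all libraries.

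Fibroblast markers went from 6000 ± 2990 to 3040 ± 804 CPM, with 5 of 10 lower, 1 higher, and *Col3a1* (-0.31, adjusted p = 0.43 in edgeR) the most abundant. List counts with TMM factors in this paragraph stand beside 36.8% lower and 34.1% higher over all genes tested. With library totals 9 were lower, *Col3a1* included (-1.06), and none higher, beside 54.6% and 16.9% of all genes. With the length correction 5 were lower and 2 higher, beside 33.7% and 33.8% of all genes. *Col1a2* (-2.37) and *Dcn* (-0.75) fell. Control 5, the lowest control for 7 adipocyte genes, had the highest fibroblast sum, 11000 CPM. Cartilage markers fell in 9 of 9 tested genes, to 17.2% of the control sum, with *Acan* (-3.55) the most abundant, then *Cnmd* (-2.52) and *Col9a1* (-2.80). Keratinocyte markers, led by *Krt10*, went from 33600 ± 1440 to 49300 ± 7140 CPM with TMM factors, with 5 of 10 lower and 2 higher. The higher genes were *Krt1* (3.65) and *Perp* (1.55), and *Krt10* itself stood at 0.19 (adjusted p = 0.56 in edgeR) and was called lower with library totals (-0.55, adjusted p = 0.036). With library totals 6 keratinocyte markers were lower and 2 higher, beside 54.6% and 16.9% of all genes. Their median log2 fold change was then -1.24, against -0.62 with TMM factors. Their sum was not taken with library totals, so its rise holds for TMM factors only. Neutrophil markers went from 15.5 ± 5.39 to 1960 ± 748 CPM, 97.3% of it *S100a8*, which keratinocytes make too, with 7 of 9 tested genes higher and 1 lower. *Cxcr2* (1.15) was among the higher genes and was not called with library totals (0.46).

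The relatives of the adipocyte genes did not all move with them. *Ppara*, the fasting-state relative of *Pparg*, went from 14.6 ± 1.75 to 1.62 ± 0.682 CPM (log2 fold change -3.17, adjusted p = 1.4e-06 in edgeR), while *Ppard*, the form common in epidermis, stood at 26.2 ± 2.59 and 22.1 ± 10.3 CPM (-0.25, adjusted p = 0.40) and was called lower with library totals (-0.88, adjusted p = 0.03). *Plin3* stood at 0.11 (adjusted p = 0.47), was called lower with library totals (-0.61, adjusted p = 0.00035) and was called higher with the length correction (0.36, adjusted p = 0.048). *Cidea*, which sebaceous glands and brown fat make, fell by 1.31. *Fabp3*, the muscle carrier, fell from 29.3 ± 6.66 to 12.8 ± 4.18 CPM (adjusted p = 0.00085). *Lipg*, the endothelial lipase related to *Lpl*, rose by 1.79 (adjusted p = 0.00046), with 1264 counts in *Supt6*-KO mouse 4 and 331 to 391 in the others. *Retnlg*, which is also in the list of neutrophil markers, rose by 6.59 (adjusted p = 2.2e-05), from 3 to 19 counts in the controls to 113 to 1167 counts. *Retnlb* had 1 count in all libraries together. *Lipc* (0.17) and *Cideb* (-0.41) were under 1 CPM and not called.

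Across the 9 mice, the genes whose log2 CPM was most like the mean of the 10 adipocyte genes, each scaled to unit variance, were *Rab5b* (Pearson r = 0.981), *Lrrc42* (0.980), *Cdo1* (0.976), *Pgam2* (0.973) and *Gem* (0.973), of 10243 genes with at least 10 CPM in a group. The 9 points fall into the 2 groups of libraries, so that r takes in the difference between them. *Rab5b* went from 151 ± 9.62 to 129 ± 5.26 CPM, a log2 fold change of only -0.24 (adjusted p = 0.056 in edgeR), and *Pgam2*, an enzyme of muscle, fell by 1.35. Each adipocyte gene was likewise compared with the mean of the other nine. *Adipoq* was the most alike (r = 0.994), then *Lpl* (0.938) and *Cidec* (0.926), and *Cfd* (0.45) and *Fabp4* (-0.368) the least.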

How the data were processed

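Libraries of skin from 5 control and 4 *Supt6*-KO mice were analysed, grouped by the sample labels. Reads were aligned to mm10 with Bowtie2 (2.3.4.3) and the authors deposited estimated counts per gene from RSEM (1.3.1), not normalised between mice. HISAT is also named in the submitters' processing notes. Estimated counts were rounded to whole numbers. TPM values were deposited by the authors for 6 of the 9 samples and served only for comparing levels between genes. Gene identifiers were matched to RefSeq for 17917 of 17943 genes, and transcript lengths, from GENCODE M21, for 17860. At this depth a value of a few counts carries a wide counting error.

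Tests used edgeR 4.0.16 (R 4.3.3), glmQLFit and glmQLFTest, with TMM factors, no covariates and Benjamini-Hochberg adjustment over all 16426 genes with at least 10 counts in sum. The standard error is the log2 fold change divided by the square root of F. The code was tested on simulated data. Exact permutation tests used scipy 1.17.1.

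The members and gene lists were chosen with earlier results of these data known. Genes named are the members, their relatives, the 3 most abundant genes of each list, in the adipocyte lists also the 2 lowest and 2 highest called, and the 5 genes most alike in profile. Lists are described by counts and medians, without a set test. The alternatives were library totals, upper-quartile and RLE factors, DESeq2 1.42.0, no filter, filterByExpr, a table without the top 50 genes by mean count, a replicate block, leaving out each mouse and, added after seeing the data, a length correction (lowess span 0.3).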

Additional observations from a re-analysis of the deposited data

Results flagged for a closer look

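Each gene and marker list sum was checked for 1 mouse far from the rest of its group. Of 56 groups of 4 or 5 mice, 1 had such a mouse, where 2.8 would be expected by chance. The summed keratinocyte markers stood at 38700 CPM in *Supt6*-KO mouse 4, against a group median of 52100 CPM. These sums take in the TMM factors, which were 0.9098 in mouse 4 and 0.7808, 0.6738 and 0.706 in *Supt6*-KO mice 1 to 3. The check was not made with library totals, so the part of the scaling in this flag was not tested. None of the 10 adipocyte genes had such a mouse. Without *Supt6*-KO mouse 4, the same 7 adipocyte genes were called lower.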

How the results depend on the processing

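Of 18 alternatives, the 7 genes called lower were called lower in all of them: *Lep* from -3.74 to -2.89, *Plin1* from -3.53 to -2.68, *Plin4* from -3.56 to -2.15, *Pparg* from -2.80 to -2.04, *Cidec* from -2.58 to -1.83, *Adipoq* from -1.98 to -1.08 and *Lpl* from -2.02 to -0.97. *Supt6* ran from -2.26 to -0.77. *Fabp4* kept its sign in 16 of 18. It reversed to -0.23 with library totals and to -0.72 with the length correction, which was chosen after seeing the data. The median log2 fold change of the 10 genes was then -2.30 and -2.07. With library totals 2771 of all genes were higher, against 5608, and 8970 lower, against 6050. The number of adipocyte genes called higher was 1, *Fabp4*, with RLE factors and in DESeq2, and 0 to 1 with each mouse left out, the 1 without control 2. *Retn* was called lower in 5 alternatives, among them without control 5 (-0.47, adjusted p = 0.048 in edgeR) and without *Supt6*-KO mouse 3 (-0.54, adjusted p = 0.037), and *Cfd* in 2. Of the 9 related lists, the number of lower genes stayed within 1.5 times in each alternative except the thermogenic genes with library totals (7 against 4).

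Same-numbered mice did not deviate together enough to count as pairs (mean correlation 0.159 over 4 pairs, lowest 0.0211, against -0.0346 over 16 other pairs). With the replicate block, 8 adipocyte genes were lower, *Retn* included (-0.48, adjusted p = 0.034 in edgeR), the median was -1.69, *Supt6* stood at -1.46, and 5800 of all genes were lower and 5251 higher. Depth limits *Lep* and *Plin1* most, at 15 to 67 counts in the *Supt6*-KO libraries.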
